A study of Mus musculus with 2 samples.

Results

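AT-rich p300 peaks are the regions of the p300 peak list of the embryonic mouse neocortex in which G and C make up 38% or less of the assembled bases. Of 6629 peaks, 909 met this limit, which is 13.7% of all peaks, and the remaining 5720 served as the comparison. The peaks came from chromatin immunoprecipitation with an antibody to p300, followed by sequencing (ChIP-seq), in dorsal cerebral wall dissected from Swiss Webster embryos at embryonic day 14.5. There was 1 p300 library and 1 input library of the same tissue, with no genetic change or treatment in either and no replicate. The dissected wall holds progenitors, neurons and non-neural cells together, and a peak cannot be assigned to any of these cell types. The deposited list gives each peak by position and number on mm9, without a score or read count, so the depth behind a single peak is unknown. The p-values below compare AT-rich with other peaks within this 1 list and cover counting error only. Neighbouring peaks share a locus, and sites of 1 peak share a sequence, so neither is an independent replicate.

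p300 is an acetyltransferase that transcription factors recruit to enhancers, and its binding marks candidate enhancers that are active in a tissue. Homeodomain proteins, among them the cortical regulators Lhx2 and Emx2, recognise short words built on the core TAAT, which holds no G or C. Basic helix-loop-helix (bHLH) proteins bind E-boxes of the form CANNTG. The neuronal factors of the Neurod and Neurog families favour CATCTG, which reads CAGATG on the opposite strand. CAGCTG is a further, palindromic E-box. A homeodomain-type site here is TAATTA or TAATTG on either strand, and no 6 bases count as both, although neighbouring sites can overlap. A match is a match of letters and does not show that a protein was bound.

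The following sequences show how these words lie in AT-rich peaks beside genes of cortical development. Each is the plus strand of NCBIM37 (mm9) around the midpoint of a peak, with homeodomain-type words, CATCTG and CAGCTG in capitals. Except for the first, each was taken as the AT-rich peak of its gene with both kinds of word, where there was one, and the most words in its middle 200 bp, so the number of capitals is set by that choice. The first lies inside the proteasome gene Psmd14, at chr2:61589114-61589413, 53.2 kb from the start of Tbr1, which encodes a T-box factor of deep-layer neurons. It sits in a reporter element, elt4, that the study cloned. The others are chr5:82655515-82655714 between Lphn3 and Tecrl, chr16:72888457-72888656 inside Robo1, chr13:78239559-78239758 inside Fam172a and 99.4 kb from the start of Nr2f1, chr14:93850623-93850822 inside Pcdh9, chr4:23100644-23100843 between Pou3f2 and Mms22l, and chr6:15297738-15297937 inside Foxp2.
Peak 3375, Tbr1: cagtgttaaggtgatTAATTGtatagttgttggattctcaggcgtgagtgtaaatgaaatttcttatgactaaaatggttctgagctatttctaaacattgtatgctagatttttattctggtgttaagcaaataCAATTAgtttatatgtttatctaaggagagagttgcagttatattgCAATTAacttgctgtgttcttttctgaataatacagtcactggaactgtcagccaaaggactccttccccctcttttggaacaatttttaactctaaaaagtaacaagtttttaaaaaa
Peak 4795, Lphn3: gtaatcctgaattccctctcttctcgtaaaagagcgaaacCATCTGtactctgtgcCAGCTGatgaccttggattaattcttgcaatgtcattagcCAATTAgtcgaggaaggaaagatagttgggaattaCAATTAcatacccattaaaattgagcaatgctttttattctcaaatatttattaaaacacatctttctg
Peak 2519, Robo1: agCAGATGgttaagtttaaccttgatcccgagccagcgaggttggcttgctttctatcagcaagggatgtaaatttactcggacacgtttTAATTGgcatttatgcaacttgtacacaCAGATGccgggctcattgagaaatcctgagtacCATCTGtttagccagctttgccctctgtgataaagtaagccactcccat
Peak 1709, Nr2f1: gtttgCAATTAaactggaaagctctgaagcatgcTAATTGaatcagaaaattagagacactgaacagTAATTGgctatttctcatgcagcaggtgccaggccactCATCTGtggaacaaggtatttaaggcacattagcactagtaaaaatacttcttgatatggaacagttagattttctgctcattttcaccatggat
Peak 2037, Pcdh9: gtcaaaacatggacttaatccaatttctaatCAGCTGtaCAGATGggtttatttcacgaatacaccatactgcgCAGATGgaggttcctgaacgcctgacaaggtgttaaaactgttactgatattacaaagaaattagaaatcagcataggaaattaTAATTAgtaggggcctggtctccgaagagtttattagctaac
Peak 4180, Pou3f2: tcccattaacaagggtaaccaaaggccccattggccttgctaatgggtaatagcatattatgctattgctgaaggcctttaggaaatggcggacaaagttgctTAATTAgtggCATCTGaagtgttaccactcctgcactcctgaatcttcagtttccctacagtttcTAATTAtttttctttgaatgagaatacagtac
Peak 5160, Foxp2: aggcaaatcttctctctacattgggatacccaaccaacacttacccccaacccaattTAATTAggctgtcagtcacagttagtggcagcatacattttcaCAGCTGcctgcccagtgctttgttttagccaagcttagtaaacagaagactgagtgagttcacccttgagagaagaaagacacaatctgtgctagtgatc

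AT-rich sequence was under-represented among p300 peaks relative to the genome, yet these peaks were as wide as the others. Of 5089604 windows of 500 bp tiled along the genome outside the peaks, 30.2% had a GC content of 38% or less, against 12.2% of the middle 500 bp of the peaks (809 of 6629). The GC content of the AT-rich peaks ran from 26.5% up to the limit with a median of 35.7%, and that of the other peaks had a median of 46.4%. The limit cut a continuous distribution. The 3 peaks just inside it were number 377 with 37.996%, number 798 with 37.995% and number 3500 with 37.982%, and the 3 just outside were number 5941 with 38.001%, number 312 with 38.008% and number 6590 with 38.009%. The peaks of lowest GC content were number 2027 near Pcdh20 (26.5%), number 2114 between Cdh6 and Cdh9 (26.5%), number 1936 between the vomeronasal receptor genes Vmn2r88 and Vmn2r89 (26.7%), number 549 downstream of Grik2 (26.8%) and number 2119 beside Cdh9 (27.1%). Protocadherins and cadherins, which flank 3 of these 5, are adhesion proteins of the neuronal surface.

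**Figure D1:**
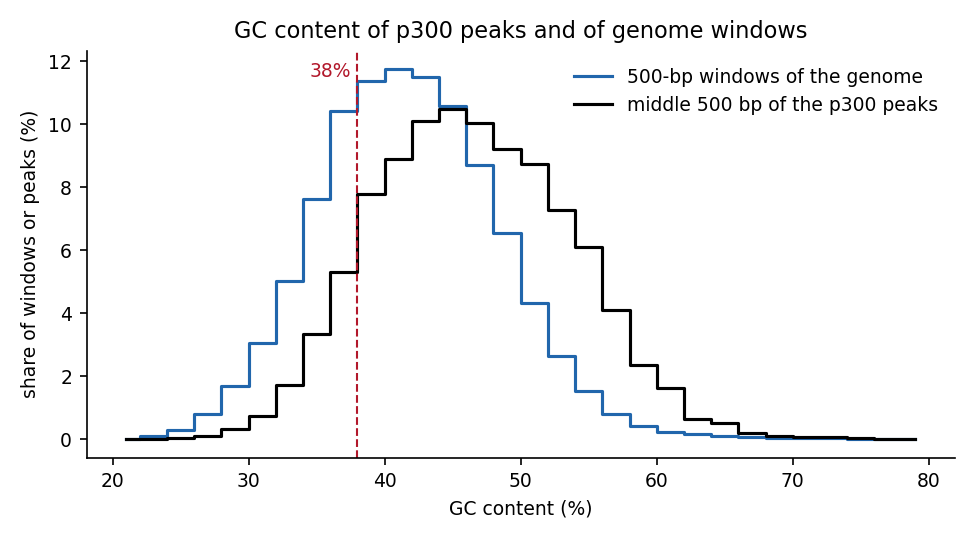
Distribution of GC content (x axis, percent, in steps of 2 percentage points) over 500-bp windows of the genome and over the middle 500 bp of all p300 peaks, as a share of each (y axis, percent). The dashed line marks 38%, which 30.2% of genome windows and 12.2% of peak middles do not exceed.

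The median width was 1023 bp for AT-rich peaks (95% confidence interval from order statistics, 1004 to 1049 bp) and 1016 bp for the others (1009 to 1025 bp). Of the AT-rich peaks 465 (51.2%, exact 95% interval 47.9 to 54.5%) exceeded the median width of all peaks, against 2848 of the others (49.8%, 48.5 to 51.1%) and 50% of all peaks. The difference of 1.36 percentage points did not pass the two-sided Fisher's exact test (p = 0.453, also after Benjamini-Hochberg adjustment over the 6 such tests made here). Both extremes of the list were AT-rich. The narrowest peak of all, number 3572 with 367 bp, lay between Plcb1 and Plcb4, and the widest, number 1267 with 5243 bp, lay between Gm9804 and Prkd1. The next widest AT-rich peaks measured 4402 bp (number 3757) and 3919 bp (number 3759, inside the homeodomain and zinc finger gene Zfhx4, 7.21 kb from its start). The next narrowest measured 391 bp (number 5244) and 464 bp (number 5174, inside the potassium channel gene Kcnd2).

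The base composition of these peaks resembled that of their surroundings, with GC-poor shoulders beside the middle. The 100 kb around an AT-rich peak had a median GC content of 37.97%, against 44.2% for the other peaks, and the 2 kb on either side had 37.3% against 44.8%. Over all 6629 peaks, the GC content of the peak and of its 100 kb correlated at a Pearson's r of 0.81, given as a description since the peak lies within those 100 kb and neighbours share them. AT-rich peaks were nevertheless AT-richer than their surroundings in 814 of 909 cases (89.5%), with a median difference of -2.84 percentage points, while 1275 of the 5720 others (22.3%) lay below theirs, with a median difference of 2.31 points. The limit fixes part of that contrast. Within the AT-rich peaks, GC content averaged 38.2% in the middle 200 bp, fell to 33.9% and 34.2% in the 100-bp bins centred 350 bp to the left and right of the midpoint, and was back at 38% at 2 to 3 kb away. The other peaks rose from 44.7% at 2 to 3 kb to 48.7% in the middle 200 bp with no such dip. Since the limit was set on the GC content of the whole peak, a dip within the peaks that met it is in part fixed by the choice of peaks. The longest run of A and T had a median of 16 bases, against 12 in the others, and the observed-to-expected ratio of CpG had a median of 0.176 against 0.236.

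Homeodomain-type words were frequent in AT-rich peaks, more so than in genome sequence of the same composition. In the middle 500 bp, 672 of 909 AT-rich peaks (73.9%, exact interval 70.9 to 76.8%) held at least 1, against 45.9% of genome windows matched to the same GC content in steps of 1 percentage point and 34.8% of all genome windows. The corresponding share was 48.6% in the other peaks (22.1% in their windows) and 52.1% in all peaks. The 1412 sites were 2.40 times the 589 expected from the windows (exact Poisson interval of the fold, 2.27 to 2.52). The palindrome TAATTA was at 2.85-fold (742 sites) and TAATTG at 2.04-fold (670 sites). Since composition is the rule, these values are descriptions without a test. The other peaks held fewer sites per length (whole peaks, 1.30 per kb against 2.61 per kb), but their fold over windows of like GC was higher, at 3.07 (2.99 to 3.16). Across the whole list the fold of homeodomain-type words rose with GC content, from 2.17 in the 230 peaks of 34% or less and 2.497 in the 679 peaks above 34% and up to 38%, to 4.45 in the 1656 peaks above 50%.

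Over whole AT-rich peaks there were 2691 homeodomain-type sites, with a median of 3 and a maximum of 14 per peak, and 818 of 909 peaks (89.99%) held at least 1. The peak with 14 was number 3759 in Zfhx4, 3919 bp wide. Number 551 inside Grik2, which encodes a kainate-type glutamate receptor subunit, and number 6425 inside Tcf12, which encodes an E-protein, each held 13. Those with 12 included number 3757 and number 3899, which is only 1443 bp wide and lies inside Rsrc1, 55.1 kb from the start of the homeobox gene Shox2. The element peak near Tbr1 shown above held 10 in 1688 bp. In the middle 500 bp, a pair of TAAT cores with 4 bases between them, in the same orientation, was found in 79 AT-rich peaks. That was 8.69%, against 5.24% of windows of like GC. The fold of such pairs was 1.71 (interval 1.38 to 2.08), below the 2.35 (2.06 to 2.66) of the other peaks. The Otx-type word TAATCC, which shares the TAAT core, was not above its expectation (195 sites against 212, 0.92-fold, 0.80 to 1.06). 

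E-boxes of selected centres were also in excess. CATCTG was present in the middle 500 bp of 466 AT-rich peaks (51.3%, 48.0 to 54.6%), against 30.8% of windows of like GC, 33.7% of all windows and 57.4% of all peaks. Its 691 sites were 2.10 times the expected number (1.95 to 2.26), and the fold in other peaks was 1.90 (1.85 to 1.95). CAGCTG was present in 258 AT-rich peaks (28.4%, 25.5 to 31.4%), against 10.6% of like windows, 17.0% of all windows and 39.7% of all peaks. Its fold in AT-rich peaks was 2.91 (2.59 to 3.26) and in other peaks 1.88 (1.82 to 1.95), which is a description and was not tested. CATATG showed the same order, with 2.18 (1.96 to 2.42) against 1.50 (1.42 to 1.59). CACCTG, a word of Zeb factors and E-proteins, was near its expectation in AT-rich peaks at 1.07-fold (0.94 to 1.23), and CACGTG, the word of Hes and Myc-type factors, was rare at 23 sites (0.72-fold, 0.45 to 1.08). Any CANNTG occurred in 96.8% of AT-rich and 96.7% of other peaks, and in 92.1% of windows like the former. Such shares are near their ceiling and cannot show a difference. The fold of any CANNTG was 1.44 (1.39 to 1.49) in AT-rich and 1.29 (1.28 to 1.31) in other peaks. Across the list the fold of CAGCTG was 3.22 in the peaks of 34% or less and 1.83 in those above 50%, with 1.89 above 42% and up to 46% and 1.79 above 46% and up to 50%. That of CATCTG fell from 2.52 to 1.78 in the peaks above 42% and up to 46%, and was 1.996 and 1.99 in the ranges above.

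**Figure D2:**
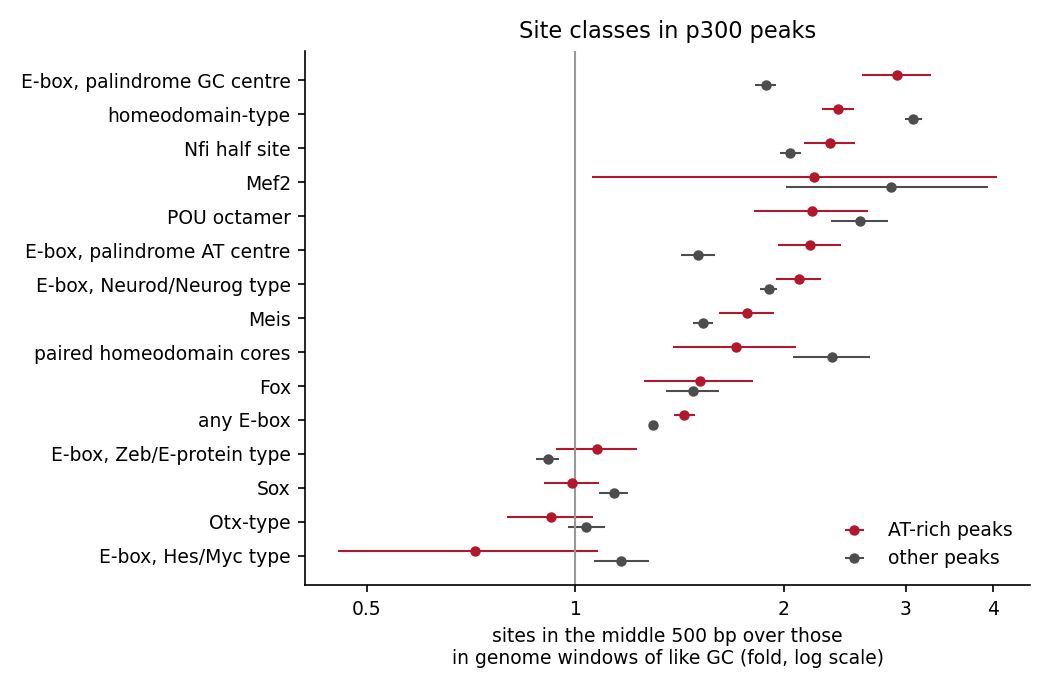
Fold of site classes in the middle 500 bp of AT-rich and other p300 peaks over genome windows of like GC content (x axis, log scale), with exact 95% Poisson intervals of the observed count as bars. The TAAT core and the single words TAATTA and TAATTG are not drawn. Among the classes drawn, the palindromic E-box with a GC centre (CAGCTG) stood highest in AT-rich peaks at 2.91 (2.59 to 3.26). TAATTA alone was at 2.85 (2.65 to 3.06). Homeodomain-type words stood at 2.40 in AT-rich and 3.07 in other peaks.

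Many AT-rich peaks held both kinds of word, but E-boxes were not more frequent where a homeodomain-type word was present. The middle 500 bp held a homeodomain-type word together with CATCTG or CAGCTG in 420 AT-rich peaks (46.2%), a homeodomain-type word alone in 252 (27.7%), one of these E-boxes alone in 162 (17.8%) and neither in 75 (8.25%). In the other peaks the E-box alone was the most frequent class (2339, 40.9%), both occurred in 1993 (34.8%) and neither in 599 (10.47%). Among AT-rich peaks, these E-boxes were present in 62.5% of those with a homeodomain-type word (58.7 to 66.2%) and in 68.4% of those without (62.0 to 74.2%), with overlapping intervals. Among the other peaks the shares were 71.6% (69.9 to 73.3%) and 79.6% (78.1 to 81.1%), in the same order. No share expected from composition was computed here, although composition bears on both kinds of word. Windows matched to the peaks of 34% or less held homeodomain-type words in 53.5%, CATCTG in 27.1% and CAGCTG in 8.30%. For peaks above 34% and up to 38% these were 43.4%, 32.1% and 11.3%.

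Other words of cortical factors, apart from the Sox word, were in excess in AT-rich peaks, and they were in excess in the other peaks too. The Nfi word TTGGCA was at 2.33-fold (2.14 to 2.53; present in 45.5% of AT-rich middles against 22.4% of like windows and 22.9% of all windows), and Nfi factors regulate glial and neuronal differentiation. The octamer ATGCAAAT, bound by POU factors such as Pou3f2, was at 2.20-fold (1.81 to 2.64; 10.6% against 5.44% of like windows and 4.36% of all). The Meis word TGACAG was at 1.77-fold (1.61 to 1.93; 41.0% against 25.3% and 28.5%) and the Fox word TGTTTAC at 1.51-fold (1.26 to 1.80; 12.2% against 8.55% and 7.37%). The Sox word AACAAT was at 0.99-fold (0.90 to 1.08; 40.3% against 40.6% and 32.3%). The Mef2 word was found at 10 sites (2.21-fold, 1.06 to 4.06). In the other peaks the folds were 2.04 for the Nfi word, 2.57 for the octamer and 1.53 for the Meis word. They were 1.48 for the Fox word, 1.14 for the Sox word and 2.86 for the Mef2 word.

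When every word of 6 bases was counted with its reverse complement, 1436 of 2080 had an expected count of at least 100 in the middles of AT-rich peaks, and 90% of their folds lay between 0.68 and 1.47. Only 11 reached 2-fold. CAGCTG ranked 1st with 2.91 and TAATTA ranked 2nd with 2.85, followed by ATTAGC with 2.54, AATTAG with 2.51 and TGCCAA, the complement of the Nfi word, with 2.33. ATTAGC and AATTAG hold the TAAT core on one strand. The remaining 6 were AGCTGC with 2.21, CATATG with 2.18, CAGATG (the complement of CATCTG) with 2.10, CTGCCA with 2.10, GTGCCA with 2.07 and CAATTA (the complement of TAATTG) with 2.04. The other peaks also had 11 words at 2-fold or more, of which 5 were shared. There TAATTA ranked 1st with 3.61 and CAGCTG ranked 14th with 1.88. The lowest fold in AT-rich peaks was that of AGGTCC with 0.47, and the repeat word ACACAC was at 0.54.

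Sites were concentrated at the middle of the peaks. In AT-rich peaks homeodomain-type words averaged 3.80 per kb in the middle 200 bp, 1.88 per kb at 400 to 600 bp from the midpoint and 1.28 per kb at 2 to 3 kb. CATCTG averaged 2.20, 0.67 and 0.73 per kb in the same places. The middle exceeded the far flanks 2.98 times for homeodomain-type words, 3.03 times for CATCTG and 3.24 times for CAGCTG, and in the other peaks 2.67, 2.66 and 2.94 times. Counting site centres between 25% and 75% of the length of each peak, 1642 of 2691 homeodomain-type sites of AT-rich peaks (61.0%, 59.1 to 62.9%) were central, against 5501 of 8337 in other peaks (66.0%, 65.0 to 67.0%). For CATCTG, 765 of 1098 sites of AT-rich peaks (69.7%, 66.9 to 72.4%) were central, against 5443 of 8393 (64.9%, 63.8 to 65.9%). The GC limit bears on where A and T lie within a peak, so these shares are a description and no test of them is read. With peaks called AT-rich by their middle 500 bp, the share of homeodomain-type sites that were central was 2.29 points higher in AT-rich than in other peaks, the opposite direction, and that of CATCTG sites 0.91 points higher. With peaks under 5 kb apart joined, the difference for homeodomain-type sites was -1.12 points and for CATCTG sites 5.32 points.

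**Figure D3:**
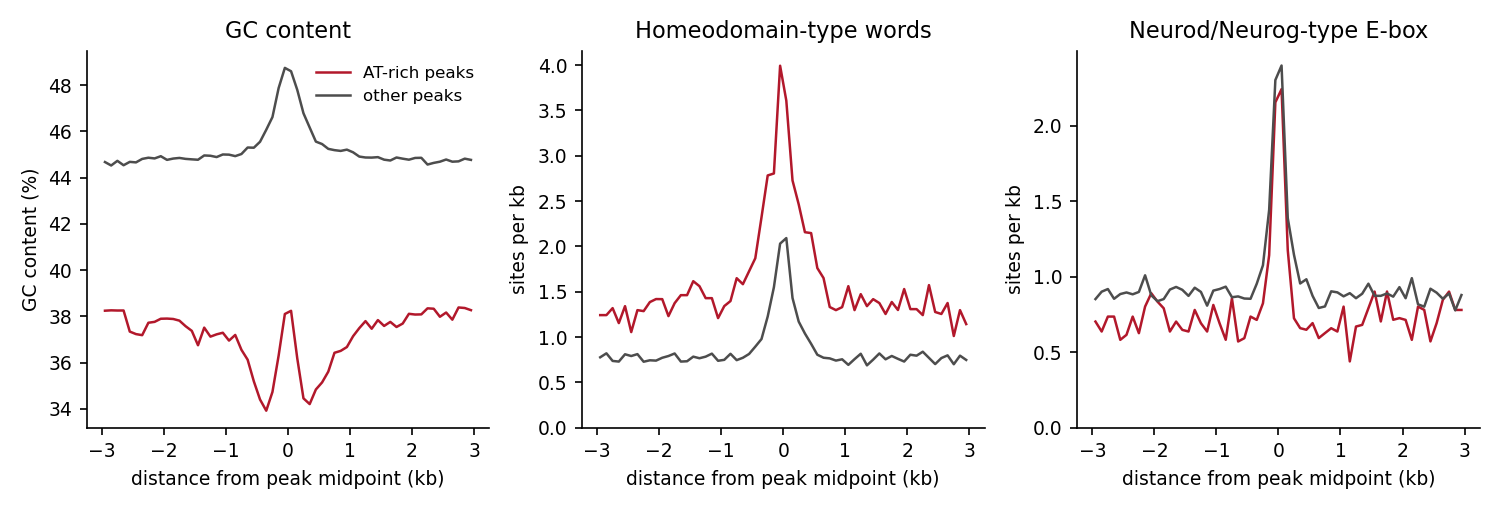
GC content (percent), homeodomain-type words and CATCTG (both as sites per kb) in 100-bp bins within 3 kb of the peak midpoint (x axis, kb), for AT-rich and other peaks. In AT-rich peaks GC content falls to 33.9% beside a middle of 38.2%, and homeodomain-type words average 3.80 per kb in the middle 200 bp against 1.28 per kb at 2 to 3 kb.

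AT-rich peaks lay farther than the other peaks from protein-coding start sites, although many were inside genes. Of the 909, 346 had their midpoint inside a protein-coding gene, 10 inside another annotated gene only and 553 outside every gene, and 10 touched an annotated exon. Thus 563 (61.9%, 58.7 to 65.1%) lay outside protein-coding genes, against 3235 of the others (56.6%, 55.3 to 57.8%) and 57.3% of all peaks (Fisher's exact test, adjusted p = 0.0029). The distance to the nearest protein-coding start had a median of 213 kb (194 to 237 kb), against 72.8 kb (69.1 to 75.9 kb) for the others. More than 50 kb separated 752 AT-rich peaks (82.7%, 80.1 to 85.1%) from a start, against 3473 of the others (60.7%, 59.4 to 62.0%) and 63.7% of all peaks (Fisher's exact test, adjusted p = 2.0e-40). Distances beyond 500 kb occurred for 215 AT-rich peaks (23.7%, 20.9 to 26.6%) and 253 others (4.42%, 3.90 to 4.99%). The farthest was number 2838, 1829 kb from Celf4 on chromosome 18. Next came number 547, 1810 kb from Grik2, then number 2729 with 1804 kb from Nudt12, number 4787 with 1721 kb from Lphn3 and number 2031 with 1690 kb from Gm10110. To the nearest start of any annotated gene, coding or not, the median distance was shorter, at 83.3 kb for AT-rich and 39.6 kb for other peaks.

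Peaks close to an AT-rich peak were fewer but were themselves often AT-rich. Another peak lay within 50 kb of 371 AT-rich peaks (40.8%, 37.6 to 44.1%), against 2950 others (51.6%, 50.3 to 52.9%) and 50.1% of all peaks (Fisher's exact test, adjusted p = 5.46e-09). The median distance to the nearest peak was 78.2 kb for AT-rich peaks and 45.97 kb for the others. That nearest peak was AT-rich for 425 of the 909 (46.8%) and for 441 of the 5720 (7.71%), a description, since neighbours share their surroundings.

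The differences in place changed when peaks were split by the GC content of their surroundings. Among peaks whose surrounding 100 kb had a GC content under 40%, a comparison added after the data were seen, AT-rich and other peaks had nearly the same shares. The share over 50 kb from a start was 88.8% of 720 AT-rich and 89.2% of 826 other peaks, the share outside protein-coding genes was 67.2% and 68.2%, and the share with a peak within 50 kb was 39.6% and 38.01% (Fisher's exact test, adjusted p = 0.807 for each). The median distance to a start was 263 kb and 242 kb. In regions of 40% or more, 189 AT-rich peaks remained, set beside 4894 others without a test. Of these AT-rich peaks 41.8% (34.7 to 49.2%) lay outside protein-coding genes, against 54.6% (53.2 to 56.0%) of the others. That difference of -12.8 points was opposite in sign to the 5.38 points over all peaks. There the share over 50 kb from a start was 59.8% (52.4 to 66.8%) of AT-rich and 55.9% (54.5 to 57.3%) of other peaks. The difference was 3.88 points, against 22.0 points over all peaks. The share with a peak within 50 kb was 45.5% (38.3 to 52.9%) and 53.9% (52.5 to 55.3%). Only this difference, of -8.36 points, was close to its value over all peaks, -10.8 points.

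**Figure D4:**
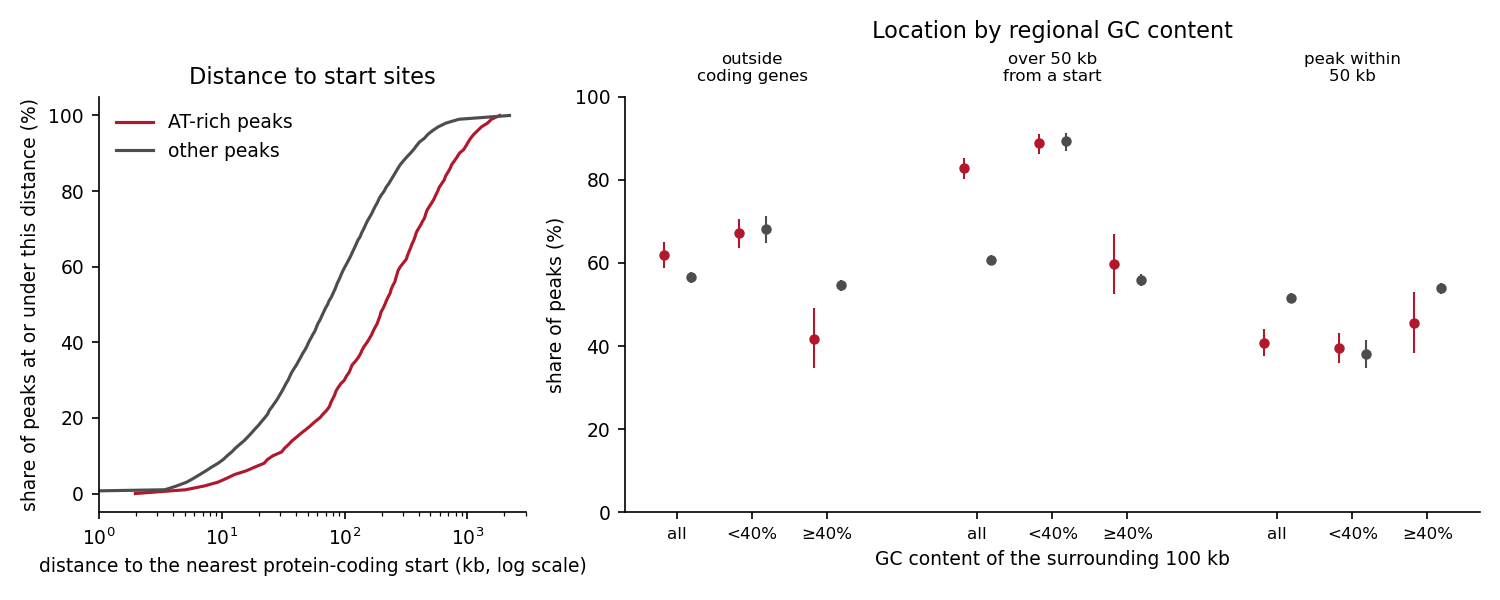
Left, cumulative share of AT-rich and other peaks by distance to the nearest protein-coding start (kb, log scale). Right, shares of peaks (red AT-rich, grey other) by location for all peaks and for peaks whose surrounding 100 kb had a GC content below 40%, or of 40% and above, with exact 95% intervals as bars; the share over 50 kb from a start is 82.7% against 60.7% over all peaks and 88.8% against 89.2% in regions below 40%.

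AT-rich peaks were unevenly spread over chromosomes. They made up 23.8% of the 269 peaks of chromosome 16, 21.1% of the 76 of chromosome X, 20.8% of the 274 of chromosome 14 and 20.7% of the 362 of chromosome 3, but 4.33% of the 300 of chromosome 7 and 5.15% of the 388 of chromosome 11. Windows of 38% GC or less made up 34.3%, 45.2%, 31.7%, 36.5%, 23.8% and 20.3% of these chromosomes in the same order. On every chromosome the share of AT-rich peaks was below that of AT-rich windows. The measures are unlike, since GC content was taken over whole peaks in the former and over 500 bp in the latter. The windows were also not filtered for unique mapping, as the reads behind the peaks were. The longest unbroken run of AT-rich peaks, 16 in a row, spanned 4.28 Mb of chromosome 5 from Igfbp7 past Lphn3 to Tecrl, and a run of 12 followed it over 1.85 Mb past Tecrl and Epha5. A run of 11 covered 8.94 Mb of chromosome 14 with the genes Slitrk1, Slitrk5 and Slitrk6, whose proteins organise synapses, and Gpc5 and Gpc6. At most 9 AT-rich peaks fell within 1 Mb. That number was reached beside Lphn3 and Tecrl (9 of 10 peaks), Tecrl and Epha5 (9 of 10), Gm9804 and Prkd1 (9 of 11), Mef2c and Tmem161b (9 of 15), and Pros1 and Epha3 (9 of 16).

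The genes with the most AT-rich peaks had up to 20 each. Each peak was given the protein-coding genes with the nearest start on either side and any that it lay in, which gave 914 genes for AT-rich peaks, 81 of them with 5 or more and 13 with 10 or more. Lphn3, a latrophilin adhesion receptor (chr5:81449163-82254158, plus strand), had the most, with 20 AT-rich and 4 other peaks. Tecrl, its neighbour, had 16 and 1. The guidance receptor Robo1, which binds Slit proteins, had 14 and 15, Robo2 had 9 and 12, and the Eph receptors Epha5 and Epha3 had 12 and 1 and 11 and 11. The protocadherin Pcdh9 had 12 and 3, the adhesion molecule Ncam2 9 and 2, and the Eph receptor ligand Efnb2 8 and 9. Among regulators, Nr2f1, an orphan nuclear receptor that patterns cortical areas, had 13 and 3, Dach1 11 and 3, and the ETS factor Etv1, a marker of layer 5 neurons, 10 and 9. Genes with short or predicted models in the same gaps filled further places of the top 20, namely Gm9726 (14 and 5), Gm10110 (10 and 3), Gm17312 (10 and 4), Gm9804 (9 and 3) and 4930555F03Rik (8 and 2), as did Arrdc3 (10 and 3), Igfbp7 (9 and 3) and Sel1l (9 and 5). The top 20 flanked or held 158 AT-rich peaks (17.4%). A peak between 2 genes counts for both, so which gene it acts on cannot be told apart.

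**Figure D5:**
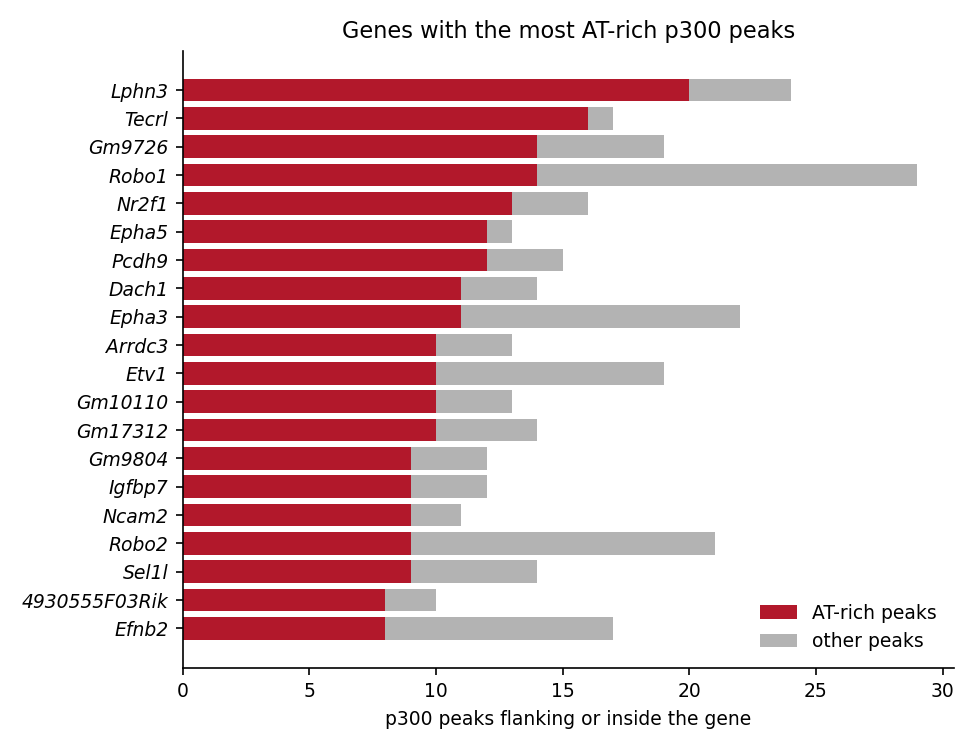
Number of AT-rich and other p300 peaks (x axis) that flank or lie in each of the 20 protein-coding genes with the most AT-rich peaks. Lphn3 leads with 20 AT-rich of 24 peaks, whereas Robo1 has 14 of 29; genes with equal numbers are in alphabetical order.

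Some of these loci consisted wholly or mainly of AT-rich peaks. Of the 914 genes with an AT-rich peak, 290 had no other kind of peak. Foxp2, a forkhead factor of deep-layer neurons linked to vocal communication, had 7 peaks and all were AT-rich, with GC contents of 32.9% to 37.9%. Of these, 5 lay inside the gene, at 33.7 to 212 kb on either side of its start, and 2 before the gene. The peaks inside held 2 to 6 homeodomain-type sites each. Mef2c, a MADS-box factor of cortical neurons, had 7 AT-rich and 2 other peaks, of which 1 AT-rich peak lay in the gene and 6 downstream at 246 to 553 kb from its start. Beside Nr2f1, the 13 AT-rich peaks lay from 99.4 to 2599 kb from its start and had 0 to 7 homeodomain-type sites. Number 1717 carried 7 and number 1719 carried none. Tbr1 was flanked by the element peak shown above and by number 3376 (33.1% GC), 6.28 kb from its start and inside Psmd14.

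By list, 138 AT-rich peaks (15.2%, 12.9 to 17.7%) flanked or lay in 1 of 68 neural adhesion genes, against 238 other peaks (4.16%, 3.66 to 4.71%) and 5.67% of all peaks, and 46 of the 68 genes had at least 1. Besides Lphn3, Pcdh9 and Ncam2, the cadherins Cdh7 (7 and 1) and Cdh9 (7 and 5) led it. Axon guidance genes had 78 AT-rich peaks (8.58%, 6.84 to 10.6%) against 159 others (2.78%, 2.37 to 3.24%) and 3.58% of all peaks, over 17 of 30 genes. Cortical layer genes had 46 (5.06%, 3.73 to 6.69%) against 120 (2.10%, 1.74 to 2.503%) and 2.5% of all peaks, over 11 of 24 genes, with Etv1, Pou3f2 (8 and 6), Foxp2, Mef2c and Nr4a2 (5 and 1) in front. In regions under 40% GC the same shares were 17.9% against 13.0% for adhesion, 72 of 720 against 67 of 826 (8.11%) for guidance and 5.83% against 3.39% for layer genes. No test was made of any list.

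Factor genes behaved unevenly. Homeodomain and POU genes had 24 AT-rich peaks (2.64%, 1.70 to 3.90%) against 101 others (1.77%, 1.44 to 2.14%) and 1.89% of all peaks. The AT-rich ones fell on 7 of 29 genes, led by Pou3f2, Pbx3 (5 and 3, all 5 inside the gene), Zeb2 (4 and 9), Pax6 (3 and 4) and Otx1 (2 and 1). Genes of bHLH factors and Id proteins had only 4 AT-rich peaks (0.44%, 0.12 to 1.12%) against 91 others (1.59%, 1.28 to 1.95%) and 1.43% of all peaks. The 4 lay 1 each at Bhlhe22, Npas3, Tcf12 and Tcf4. Sox and Nfi genes had 8 (0.88%, 0.38 to 1.73%) against 150 (2.62%, 2.22 to 3.07%) and 2.38% of all peaks. Among these genes, Nfib had 3 and 27, Sox11 2 and 11, and Sox4 1 and 30. Neurotransmitter receptor genes had 13 (1.43%, 0.76 to 2.43%) against 47 (0.82%, 0.60 to 1.09%) and 0.91% of all peaks, with Grik2 at 8 and 3. In regions under 40% GC the order turned for the receptor genes, with 1.81% of AT-rich against 2.42% of other peaks. There the shares of AT-rich and other peaks were 2.92% and 2.54% for homeodomain and POU genes. They were 0.28% and 0.73% for bHLH and Id genes, and 0.42% and 2.54% for Sox and Nfi genes.

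Lists for other cells and for comparison gave small counts. None of the 909 flanked a gene of the endothelial, microglial or meningeal lists, which had 5, 1 and 1 other peaks, and the upper exact limit for a count of 0 was 0.405%. With 13.7% of all peaks AT-rich, a count of 0 among so few peaks is no result about these lists. Genes with symbols in Rpl or Rps had 11 (1.21%) against 134 (2.34%) and 2.19% of all peaks, but that prefix also takes in annotated pseudogenes, among them Rpl27a-ps2 with 4, and kinase genes. Olfactory receptor genes had 2 (0.22%) against 11 (0.19%) and 0.20% of all peaks.

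Of 10 reporter elements of the study that were placed on the assembly by their primers, 1 overlapped an AT-rich peak. This was elt4 (chr2:61588485-61590122, 1638 bp), on peak number 3375 with a GC content of 28.6%, shown above. Its 10 homeodomain-type sites stood beside 1 CATCTG and 1 CAGCTG site. The peaks under the other 9 elements had GC contents of 39.2% to 50.8%. The study chose its elements beside genes with known or suspected cortical roles. With 13.7% of all peaks AT-rich, 1 of 10 is near the share over the list and is no result about the elements.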

How the data were processed

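p300 ChIP-seq was carried out by the authors on dorsal cerebral wall of E14.5 embryos, with 1 p300 and 1 input library. Reads were placed on mm9 by the authors with ELAND, keeping those with a single location and up to 2 mismatches. MACS (1.4 in the submitters' processing notes) called peaks over the input. Promoter-proximal peaks (a limit of 2.5 kb), exonic peaks and those in ambiguous sequence had been filtered out by the authors. The deposited list gives chromosome, start, end and number, which are positions and not a signal. The input library was not analysed here, and depth per peak is unknown.

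GC content, words and locations were computed on NCBIM37 (mm9) with GENCODE vM1 (22350 protein-coding genes on chromosomes 1 to 19 and X), with 1 start site per gene. The midpoint of a peak placed it in or outside genes. Words were counted on both strands in the middle 500 bp and compared with all 500-bp windows without unassembled bases outside the peaks, by GC content in steps of 1 percentage point. Intervals are exact (Clopper-Pearson for shares, Poisson for counts, 95%). The 6 tested shares used two-sided Fisher's exact tests with Benjamini-Hochberg adjustment and a threshold of 0.05. The tests of the 2 shares for site position are not read, since the GC limit bears on them. Folds, gene counts and neighbours were not tested. Some items that the naming rule covers are not reported here.

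The members, gene lists and named items were chosen with earlier results of these data known. Genes named are the 20 with the most AT-rich peaks and up to 5 per list, and peaks named are extremes of GC content, width, site number and distance, those at the limit and any under a reporter element. Other peaks and genes named for a single locus were chosen after their values were seen. Unique mapping was estimated as the share of 36-base words, 1 every 10 bases, that occur once. It was below 90% in 14 AT-rich peaks (1.54%) and 145 others (2.53%). Counting was tested on simulated data with planted sites. Python 3.11.15, numpy 2.4.6, scipy 1.17.1, numba 0.67.0, pandas 2.3.3 and matplotlib 3.10.9 were used.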

Additional observations from a re-analysis of the deposited data

How the results depend on the processing

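Of 54 alternatives to the 6 tested shares (the 2 for site position given as descriptions in the results), 43 kept the direction and the side of the threshold. That count takes in the 2 shares for site position, whose tests are not read and for which only differences are given below. The values that follow are AT-rich minus other peaks, in percentage points. The width difference, not past the threshold in any alternative run, changed sign with a limit of 36% (-3.39), with the GC content of the middle 500 bp (-0.33) and for the upper quartile of width (-0.87). With GC content taken over the middle 500 bp, the difference in the central share of homeodomain-type sites was 2.29, against -4.96 in the main run. For CATCTG sites it was 0.91, against 4.82. That choice uses the composition of the stretch where the sites are counted. With peaks under 5 kb apart joined, the difference for homeodomain-type sites was -1.12, and the cause of that change was not tested. Within regions under 40% GC, added after the data were seen, the shares outside protein-coding genes (-0.94), over 50 kb from a start (-0.48) and with a peak within 50 kb (1.57) reversed and lost their calls. There the difference in the central share was -2.10 for homeodomain-type sites and 3.98 for CATCTG sites. Leaving out peaks under 90% unique words changed no call. Of 15 alternatives to the 2 folds, 12 stayed within the counting interval. Over whole peaks they were 1.83 for homeodomain-type words and 1.56 for CATCTG, and TAATTA alone was at 2.85. No paired analysis was possible because there is 1 library of each kind and no replicate.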

Other observations

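The AT-rich peak with the most CATCTG sites, number 6051 inside A330008L17Rik on chromosome 8, had 15, and those with 5 included number 650 beside Nedd1, number 680 between Rassf9 and Alx1, and number 1267. The 15 sites spanned 346 bases, and 13 of the 14 neighbouring pairs stood exactly 15 bases apart. Only 82.6% of the 36-base words of that peak occurred once in the genome. Its middle, chr8:102052460-102052659 (plus strand, CATCTG in capitals), is shown because the sites belong to a tandem repeat.
Peak 6051: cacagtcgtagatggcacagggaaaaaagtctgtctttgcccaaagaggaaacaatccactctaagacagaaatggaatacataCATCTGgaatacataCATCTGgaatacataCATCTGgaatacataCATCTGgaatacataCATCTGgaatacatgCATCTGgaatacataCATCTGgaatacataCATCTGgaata

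The AT-rich peak of lowest GC content, number 2027 beside Pcdh20, had 3 homeodomain-type sites and 1 CATCTG site. Its middle, chr14:89200337-89200536 (plus strand, the same words in capitals), is shown for the A and T runs around them.
Peak 2027: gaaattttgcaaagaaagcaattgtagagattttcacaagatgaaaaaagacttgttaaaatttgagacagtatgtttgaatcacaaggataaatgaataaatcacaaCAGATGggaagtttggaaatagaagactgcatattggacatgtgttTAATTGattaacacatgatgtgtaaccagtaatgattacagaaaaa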
